A study of Mus musculus with 81 samples.

Results

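Heart pools at the upper and lower ends of Arntl expression were compared within the BXD family, the recombinant inbred mouse strains bred from C57BL/6J and DBA/2J. The 81 arrays of the series were ranked within each diet by the probe set for Arntl, which encodes the clock activator BMAL1. The 8 highest and 8 lowest chow arrays and the 8 highest and 8 lowest high fat arrays were taken, so 32 of 81 arrays formed an Arntl-high group of 16 and an Arntl-low group of 16. Every array holds whole-heart RNA of about 5 male mice of 1 strain on 1 diet, all 29 weeks old and fasted from 6 pm to 9 am. The series covers 40 BXD strains and both parents, with 42 chow and 39 high fat arrays. RNA of the animals was combined into 1 pool per strain and diet, which hides how far single mice of a strain differ. The submitters' protocol names only chow, and diet was taken from the treatment label of each sample. The sources used here do not say at what hour after the fast each pool's hearts were taken, so no phase was estimated. In whole hearts, fewer cells of a type and less RNA per cell cannot be told apart.

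The circadian clock is a transcriptional feedback loop that runs in nearly every cell of the heart. BMAL1 pairs with CLOCK or its relative NPAS2 and, at E-box sequences, switches on the Per, Cry and Nr1d genes and the output factors Dbp and Tef. PER and CRY proteins then inhibit this pair, while the receptors REV-ERB alpha and beta, encoded by Nr1d1 and Nr1d2, repress Arntl and other genes with ROR response elements (ROREs). In mouse tissues Arntl transcripts are therefore high when transcripts of Dbp, Nr1d1 and the Per genes are low, and the reverse.

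Levels are in rescaled expression units: the probe sets of every array average 8, with an SD of 2. The base of this log-like scale is not known, and differences are therefore stated in the same units and never as folds. Arntl itself set the groups, and its difference between them is described without a test. In the high group Arntl ran from 10.598 to 10.935 with a median of 10.757, and in the low group from 9.904 to 10.303 with a median of 10.244. The group means differed by 0.543 units. The cut on chow fell between BXD56 (10.685, in the high group) and BXD62 (10.658, outside it), and at the lower end between BXD97 (10.31, outside) and BXD49 (10.303, in the low group). On high fat it fell between BXD95 (10.598) and BXD100 (10.577), and between BXD48 (10.323) and BXD84 (10.281). Arrays on either side of a cut therefore differed by 0.05 units or less, and the 49 arrays in neither group filled the range between the groups. The high group came from 11 strains, of which 5 (BXD61, BXD68, BXD70, BXD101 and C57BL/6J) entered it on both diets. The low group came from 14 strains, of which 2 (BXD55 and BXD98) entered it on both diets.

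The promoters of Arntl and of the 6 genes whose transcripts differed between the groups are printed to show where the textbook clock motifs lie next to the start site. Each line holds the 250 bases before the RefSeq start (GRCm38.p6), written 5′ to 3′ on the gene's own strand, with motif matches in capitals.
Dbp, chr7:45704997-45705246, plus strand: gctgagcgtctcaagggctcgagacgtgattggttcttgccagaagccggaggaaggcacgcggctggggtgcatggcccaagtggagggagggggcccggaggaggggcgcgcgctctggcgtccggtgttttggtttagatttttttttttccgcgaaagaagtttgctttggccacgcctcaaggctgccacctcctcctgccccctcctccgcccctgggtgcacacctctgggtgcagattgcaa
Nr1d2, chr14:18239107-18239356, minus strand: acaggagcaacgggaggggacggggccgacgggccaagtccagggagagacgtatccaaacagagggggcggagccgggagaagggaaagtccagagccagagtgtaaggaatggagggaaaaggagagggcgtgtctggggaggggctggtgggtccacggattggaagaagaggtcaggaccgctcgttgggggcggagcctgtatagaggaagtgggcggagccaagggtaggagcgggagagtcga
Nr1d1, chr11:98775378-98775627, minus strand: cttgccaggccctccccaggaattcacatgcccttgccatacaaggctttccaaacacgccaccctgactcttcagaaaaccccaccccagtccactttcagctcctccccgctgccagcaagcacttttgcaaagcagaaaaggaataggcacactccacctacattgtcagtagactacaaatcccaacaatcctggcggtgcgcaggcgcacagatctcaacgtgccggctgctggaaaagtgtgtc
Ciart, chr3:95882229-95882478, minus strand: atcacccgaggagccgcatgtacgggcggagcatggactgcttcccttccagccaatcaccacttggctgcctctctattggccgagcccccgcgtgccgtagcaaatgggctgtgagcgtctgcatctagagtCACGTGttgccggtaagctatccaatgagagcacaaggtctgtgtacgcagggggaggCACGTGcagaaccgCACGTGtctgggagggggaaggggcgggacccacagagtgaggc
Per3, chr4:151044666-151044915, minus strand: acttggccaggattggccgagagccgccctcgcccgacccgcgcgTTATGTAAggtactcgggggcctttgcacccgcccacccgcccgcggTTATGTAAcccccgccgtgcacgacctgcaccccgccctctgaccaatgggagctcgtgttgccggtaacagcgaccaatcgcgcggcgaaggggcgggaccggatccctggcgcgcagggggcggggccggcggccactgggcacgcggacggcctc
Tef, chr15:81802423-81802672, plus strand: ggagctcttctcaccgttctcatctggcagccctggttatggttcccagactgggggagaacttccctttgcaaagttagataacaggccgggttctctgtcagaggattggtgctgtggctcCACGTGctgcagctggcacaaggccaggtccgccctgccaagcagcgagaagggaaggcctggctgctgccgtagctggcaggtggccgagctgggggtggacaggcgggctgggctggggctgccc
Arntl, chr7:113207215-113207464, plus strand: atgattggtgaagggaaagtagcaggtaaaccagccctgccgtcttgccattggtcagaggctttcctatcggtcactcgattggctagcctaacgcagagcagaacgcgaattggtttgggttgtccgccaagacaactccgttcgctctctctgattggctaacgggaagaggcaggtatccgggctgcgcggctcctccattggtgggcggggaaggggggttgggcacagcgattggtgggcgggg
The motifs searched, on both strands, were the E-box CACGTG, the D-box (TTATGTAA, TTACGTAA or TTATGCAA), which PAR bZIP factors bind, and the RORE, which is GGTCA after an A/T-rich start. Ciart held 3 E-boxes, with first bases at -116, -58 and -44 from the start site, and Tef held 1 E-box, at -127. Per3 held 2 D-boxes, with first bases at -205 and -158. The printed windows of Dbp, Nr1d1, Nr1d2 and Arntl held none of these letters, which says nothing of sites elsewhere in the genes. Arntl and Tef each have 2 RefSeq start windows, of which the first listed is printed. Of all 32851 promoter windows of this length 6.02% held an E-box, 1.61% a D-box and 0.648% a RORE. Among the other 11 clock genes with a window, Per1, Cry1 and Bhlhe41 held an E-box and Per1 held a D-box as well.

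Dbp, Nr1d2, Nr1d1, Ciart, Per3 and Tef were lower in the Arntl-high pools, and no gene was called higher. Of 22179 genes tested other than Arntl, these 6 passed (limma with diet in the model, Benjamini-Hochberg adjusted p under 0.05), which is 0.0271% of all genes, and all 6 belong to the clock lists. With each array centred on its median, a scaling that moved the median difference of all genes to 0.0261, 7 genes were called, 2 higher and 5 lower, and Per3 and Tef were not among them. With the endothelial, macrophage and fibroblast marker means as covariates, a setting chosen after seeing the data, 3 genes were called (Dbp, Nr1d2 and Ciart). At an unadjusted p under 0.05 the share over all genes was 5.88% (1304 genes). Of the 18 measured clock genes other than Arntl 12 were under that level, 9 lower and 3 higher. The median difference of the 18 genes was -0.159 units, against 6.25e-05 over all genes.

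**Figure D1:**
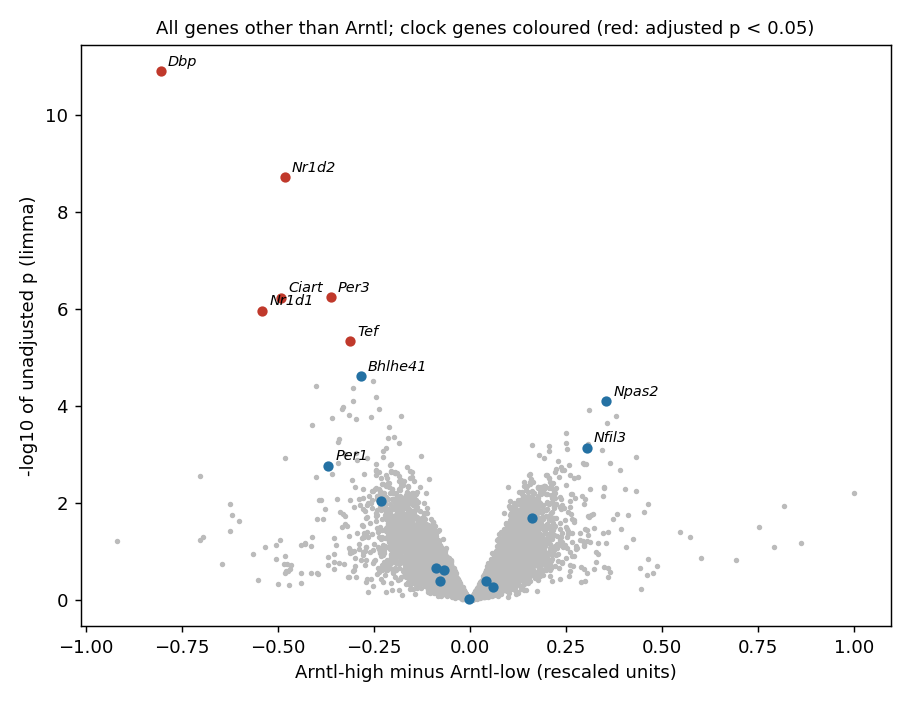
Each point is 1 of 22179 genes; the x axis is the Arntl-high minus Arntl-low difference in rescaled units and the y axis -log10 of the unadjusted limma p. The 6 red genes (adjusted p under 0.05) all lie on the negative side, from -0.805 for Dbp to -0.312 for Tef, and the other clock genes are blue.

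Among the output factors, Dbp, a PAR bZIP activator that binds D-boxes and passes clock timing on to metabolic genes, separated the groups fully. Its level in the 16 Arntl-high arrays ran from 9.385 to 10.24 with a median of 9.8015, and in the 16 Arntl-low arrays from 10.256 to 11.071 with a median of 10.64. The highest Arntl-high array thus lay below the lowest Arntl-low array, and Dbp was the only gene besides Arntl without overlap between the groups (0.00451% of all genes). The difference was -0.805 ± 0.0810 (SE, limma adjusted p = 2.76e-07). Tef, a second PAR bZIP activator, ran from 8.59 to 9.09 (median 8.79) in the high group and from 8.84 to 9.37 (median 9.1185) in the low group. These ranges overlapped, and 10 of 16 Arntl-high arrays were below every Arntl-low array. Tef differed by -0.312 ± 0.0575 (SE, adjusted p = 0.0173, limma), and this call was lost without the parent strains (adjusted p = 0.211), with the mean over all its probe sets (adjusted p = 0.082), with array weights (adjusted p = 0.0501) and with marker covariates (adjusted p = 0.0555).

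The other bZIP factors did not pass. Nfil3, a repressor that competes with the PAR factors for D-boxes, ran from 8.894 to 10.066 (median 9.604) in the high and from 8.766 to 9.642 (median 9.3665) in the low group. Its difference was 0.305 ± 0.0822 (SE), opposite in sign to Dbp, with an adjusted p of 0.435 (limma). Hlf, the third PAR bZIP factor, had medians of 9.6215 and 9.6495, and its difference of -0.0661 had a 95% interval from -0.181 to 0.0483.

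The REV-ERB receptors were both lower in the Arntl-high pools. Nr1d2 ran from 10.064 to 10.777 (median 10.464) in the high group and from 10.669 to 11.141 (median 10.927) in the low group. In 12 of 16 Arntl-high arrays it lay below every Arntl-low array, and the difference was -0.482 ± 0.0597 (SE, limma adjusted p = 2.12e-05). Nr1d1 ran from 11.122 to 12.377 (median 11.6965) in the high group and from 11.947 to 12.545 (median 12.3005) in the low group. The low group was tight (SD 0.174) and the high group wide (SD 0.346), with 11 of 16 arrays below every Arntl-low array. Nr1d1 differed by -0.540 ± 0.0915 (SE, adjusted p = 0.00485, limma). The ROR receptors, which activate at the same elements, gave small differences. Rora differed by 0.0435 (95% interval -0.0645 to 0.152) and Rorb by 0.0612 (-0.136 to 0.258), and neither passed.

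**Figure D2:**
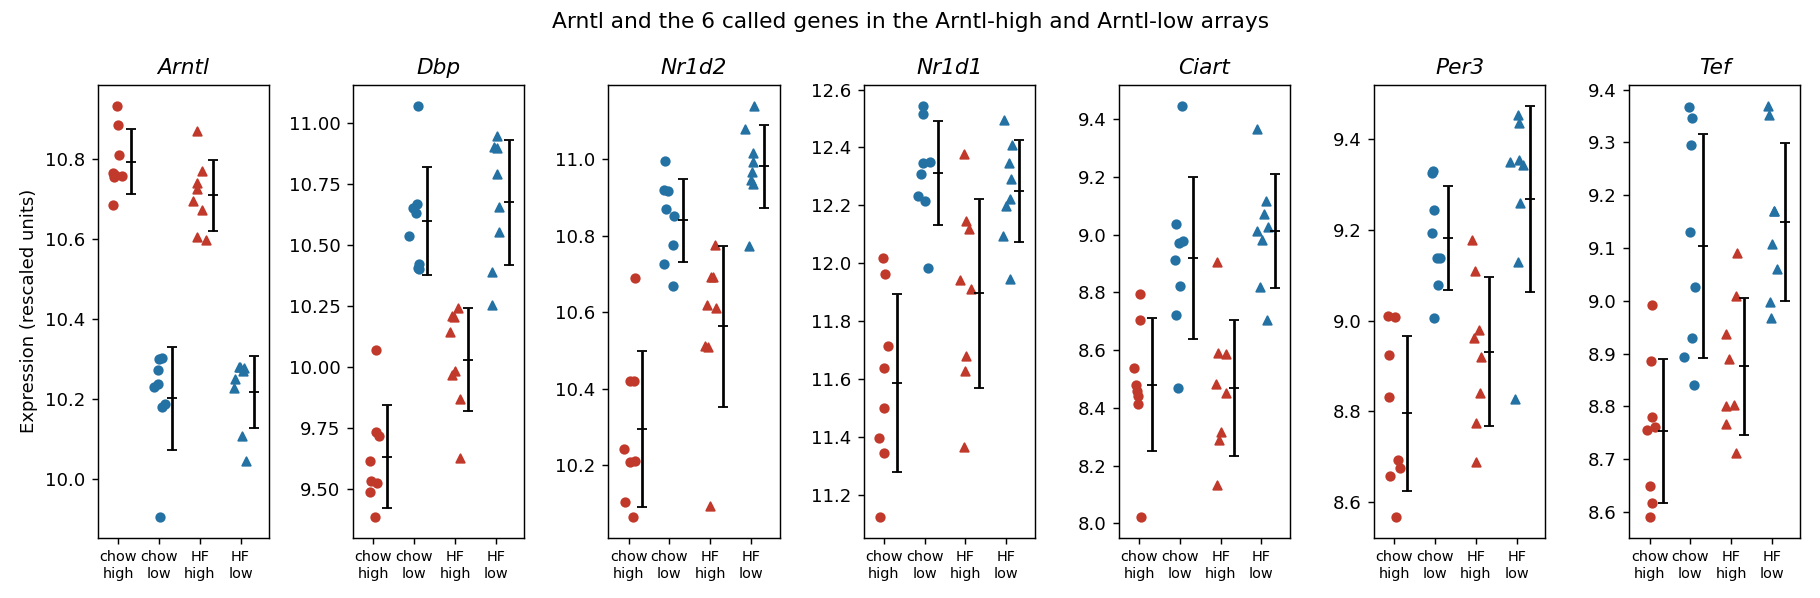
Expression in rescaled units (y axis) of Arntl and the 6 called genes in each of the 32 arrays, by diet (chow or high fat, HF) and Arntl group; the bars beside the points give the mean and SD of 8 arrays. Red Arntl-high arrays lie above blue Arntl-low arrays for Arntl by construction, and below them without overlap for Dbp only.

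Of the repressors of the loop, Ciart and Per3 were lower in the Arntl-high pools. Ciart, also known as Chrono, which encodes an inhibitor of the BMAL1 complex, ran from 8.021 to 8.905 (median 8.4685) in the high group and from 8.468 to 9.448 (median 8.9805) in the low group. Its difference was -0.491 ± 0.0804 (SE, limma adjusted p = 0.00326), and 11 of 16 Arntl-low arrays were above every Arntl-high array. The call was lost after quantile normalization (adjusted p = 0.0675) and with 5 arrays per diet and group (adjusted p = 0.20, also for Tef). Per3, a period gene, ran from 8.566 to 9.178 (median 8.88) in the high group and from 8.828 to 9.454 (median 9.2515) in the low group. It differed by -0.362 ± 0.0592 (SE, limma adjusted p = 0.00326), and all 16 Arntl-high arrays were below the Arntl-low median. With each array centred on its median, the adjusted p of Per3 was 0.0524.

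The remaining repressors did not pass. Bhlhe41, which encodes the E-box repressor DEC2, came next in order after the 6 called genes. It ran from 9.194 to 9.66 in the high and from 9.49 to 10.161 in the low group, a difference of -0.284 ± 0.0583 (SE, adjusted p = 0.0778, limma), and it did pass after quantile normalization (adjusted p = 0.0168). Its relative Bhlhe40, encoding DEC1, differed by -0.232 ± 0.0841 (SE, adjusted p = 0.752). Per1, the period gene that also answers to glucocorticoids, ran from 10.067 to 11.333 and from 10.402 to 11.592, overlapping over most of its range, with a difference of -0.369 ± 0.109 (SE, adjusted p = 0.610). Cry1, a cryptochrome repressor with E-box and RORE control, differed by 0.162 ± 0.0669 (SE, adjusted p = 0.811), opposite in sign to the period genes. Cry2 differed by -0.0872 with an interval from -0.230 to 0.0559. On chow its difference was -0.240 ± 0.0588 (SE, limma adjusted p = 0.391), and on high fat 0.0658 ± 0.118 (SE). The interaction of Cry2 with diet had an unadjusted p of 0.0276 (limma, adjusted p = 0.968). Per2 is not among the singly named genes and has no value here.

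The partners of BMAL1 gave unlike values. Npas2, which like Arntl is repressed by the REV-ERB receptors, ran from 9.619 to 10.409 (median 10.0765) in the high group and from 9.156 to 10.006 (median 9.7545) in the low group. In 10 of 16 Arntl-high arrays it was above every Arntl-low array, yet its difference of 0.355 ± 0.0793 (SE) missed the threshold over all genes (adjusted p = 0.138, limma). The high fat array of BXD68 had the highest Arntl on that diet (10.871) and the lowest Npas2 of the high group (9.619). Leaving it out brought Npas2 past the threshold (0.382, limma adjusted p = 0.0487). It also raised the count of called genes from 6 to 11, 1 higher and 10 lower. In the other 31 of 32 fits that left out 1 array, Npas2 stayed uncalled. Clock had medians of 12.3665 and 12.3975, and its difference of -0.00319 had a 95% interval from -0.10 to 0.0937. Its sign turned under other settings. Arntl2, a paralogue of Arntl, differed by -0.0781 (-0.271 to 0.115).

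**Figure D3:**
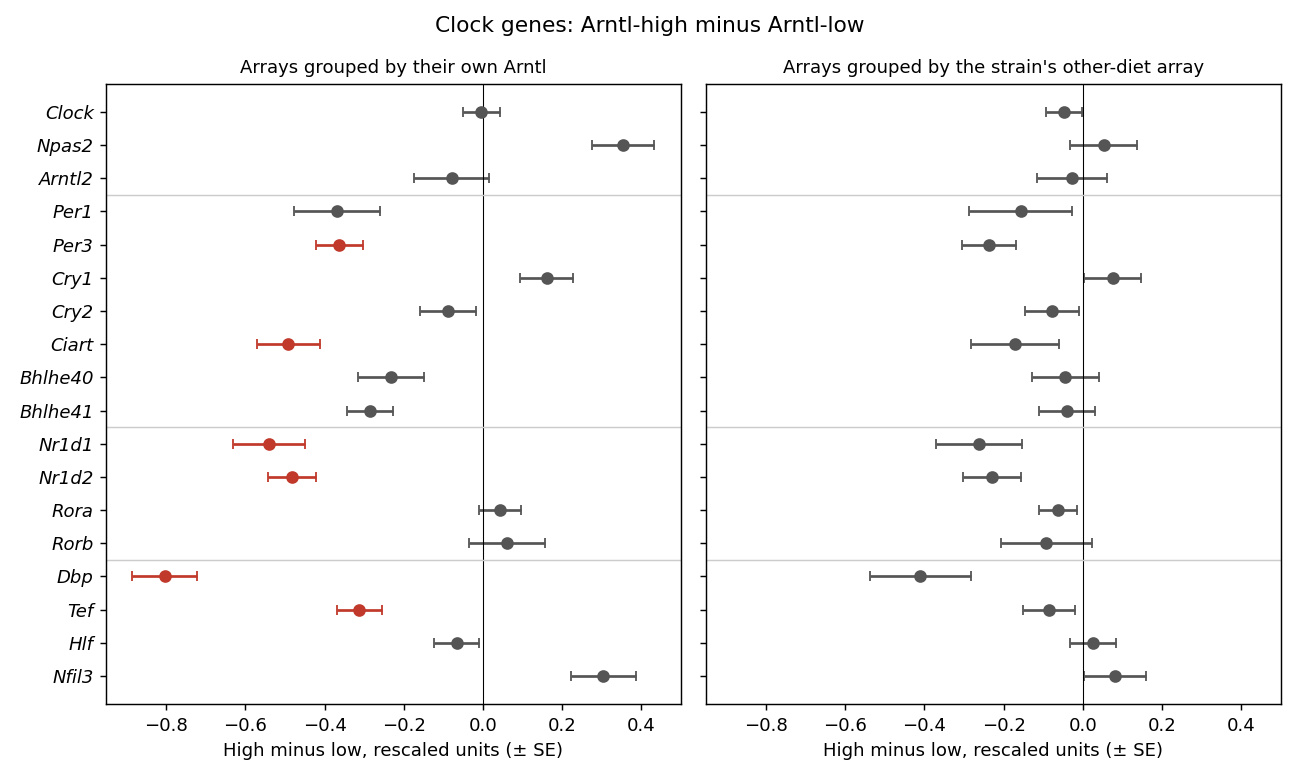
Differences between the Arntl-high and Arntl-low groups (x axis, rescaled units, bars ± SE) for 18 clock genes (y axis), ordered as activators, repressors, nuclear receptors and bZIP factors. On the left arrays are grouped by their own Arntl and on the right by the array of the same strain on the other diet; red marks an adjusted p under 0.05, reached by 6 genes on the left and 0 on the right.

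The differences were examined within each diet. On chow Dbp differed by -0.965 ± 0.103 (SE, limma adjusted p = 0.000302), Nr1d2 by -0.546 (adjusted p = 0.0346) and Nr1d1 by -0.726 (adjusted p = 0.0416). These and the neuronal gene Syn3 were the 4 genes called on chow, which is 0.0180% of those tested (7.17% at an unadjusted p under 0.05). On high fat 0 genes were called over the whole table (limma, 880 genes at an unadjusted p under 0.05, 3.97%). There Dbp differed by -0.644 ± 0.111 (SE, adjusted p = 0.271), Ciart by -0.544 (adjusted p = 0.489), Nr1d2 by -0.418 (adjusted p = 0.547) and Nr1d1 by -0.355 (adjusted p = 0.9999). The high fat fit used 16 arrays, as did the chow fit. The Arntl difference that set the groups was itself smaller on high fat (0.493) than on chow (0.593). Whether that bears on the differences of the other genes was not tested. The difference between the diets was itself tested as an interaction, and 0 genes passed (limma, 1130 genes at an unadjusted p under 0.05, 5.09%). For Dbp the high fat difference was smaller in size by 0.322 (unadjusted p = 0.0456, adjusted p = 0.968), and for Nr1d1 by 0.371 (unadjusted p = 0.0407, adjusted p = 0.968). The Dbp level of the Arntl-high arrays was 9.63 ± 0.211 on chow and 10.03 ± 0.211 on high fat (SD, n = 8 each), and that of the Arntl-low arrays 10.6 ± 0.221 and 10.67 ± 0.256.

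Across all arrays of a diet, the relation of each clock gene with Arntl was computed without groups. It used 42 chow and 39 high fat arrays, as 36 relations in all. The arrays of both Arntl groups are among these, and the same Arntl values had ranked them. For every clock gene, called or not, the p-values below are therefore not a test separate from the group comparison. Dbp had Pearson r of -0.825 and Spearman rho of -0.784 on chow (each with permutation p = 1e-05, the smallest the draws can give, adjusted p = 7.2e-05 and 9e-05). On high fat r was -0.671 and rho -0.668 (permutation p = 1e-05 for both, adjusted p = 7.2e-05 and 9e-05). Without the 2 arrays farthest from the median of Arntl, Dbp kept an r of -0.779 in the chow and -0.653 in the high fat pools. Nr1d1 had r of -0.792 and rho of -0.764 on chow (permutation p = 1e-05 for both, adjusted p = 7.2e-05 and 9e-05), and r of -0.542 and rho of -0.490 on high fat (permutation p = 0.00038 and 0.00177, adjusted p = 0.00124 and 0.00455). Its r became -0.749 and -0.504 once those arrays were dropped. Nfil3 had a positive r of 0.607 and rho of 0.585 on chow (permutation p = 4e-05 and 9e-05, adjusted p = 0.00018 and 0.000463, r = 0.583 without 2 arrays). On high fat its r was 0.334 and its rho 0.217 (permutation p = 0.0374 and 0.184, adjusted p = 0.064 and 0.275, r = 0.184 without 2 arrays). For Nr1d2 the r values were -0.736 (chow) and -0.671 (high fat; rho -0.672 and -0.639, permutation p = 1e-05 for both r, adjusted p = 7.2e-05, and -0.698 and -0.688 without 2 arrays). Npas2 had r of 0.484 and rho of 0.307 on chow (permutation p = 0.00133 and 0.0478, adjusted p = 0.00368 and 0.0822), and r of 0.322 without BXD95 and BXD87. On high fat its r was 0.462 and its rho 0.477 (permutation p = 0.00347 and 0.00227, adjusted p = 0.00735 and 0.00545), and r was 0.504 without 2 arrays. Per1 had r of -0.356 on chow (rho -0.353, permutation p = 0.0206, adjusted p = 0.0372, r = -0.322 without 2 arrays) and -0.143 on high fat (rho -0.20, permutation p = 0.384, adjusted p = 0.477). The 6 called genes also varied together, given here as a description since their values chose them: over their 15 pairs r ran from 0.362 to 0.836 (median 0.609) on chow and from 0.311 to 0.721 (median 0.555) on high fat. Clock had r of 0.249 on chow (permutation p = 0.109, adjusted p = 0.158), which fell to -0.0219 without BXD95 and BXD87. Per3, Tef, Ciart and Bhlhe41 had r of -0.588, -0.602, -0.463 and -0.469 on chow. On high fat these were -0.659, -0.474, -0.569 and -0.528 (adjusted permutation p of r 0.00488 or less on both diets). Bhlhe40 and Cry1 had r of -0.292 and 0.174 on chow (adjusted permutation p = 0.0971 and 0.366). On high fat these were -0.447 and 0.372 (0.0088 and 0.0372). Arntl2, Cry2, Rora, Rorb and Hlf had adjusted p above 0.05 on both diets.

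**Figure D4:**
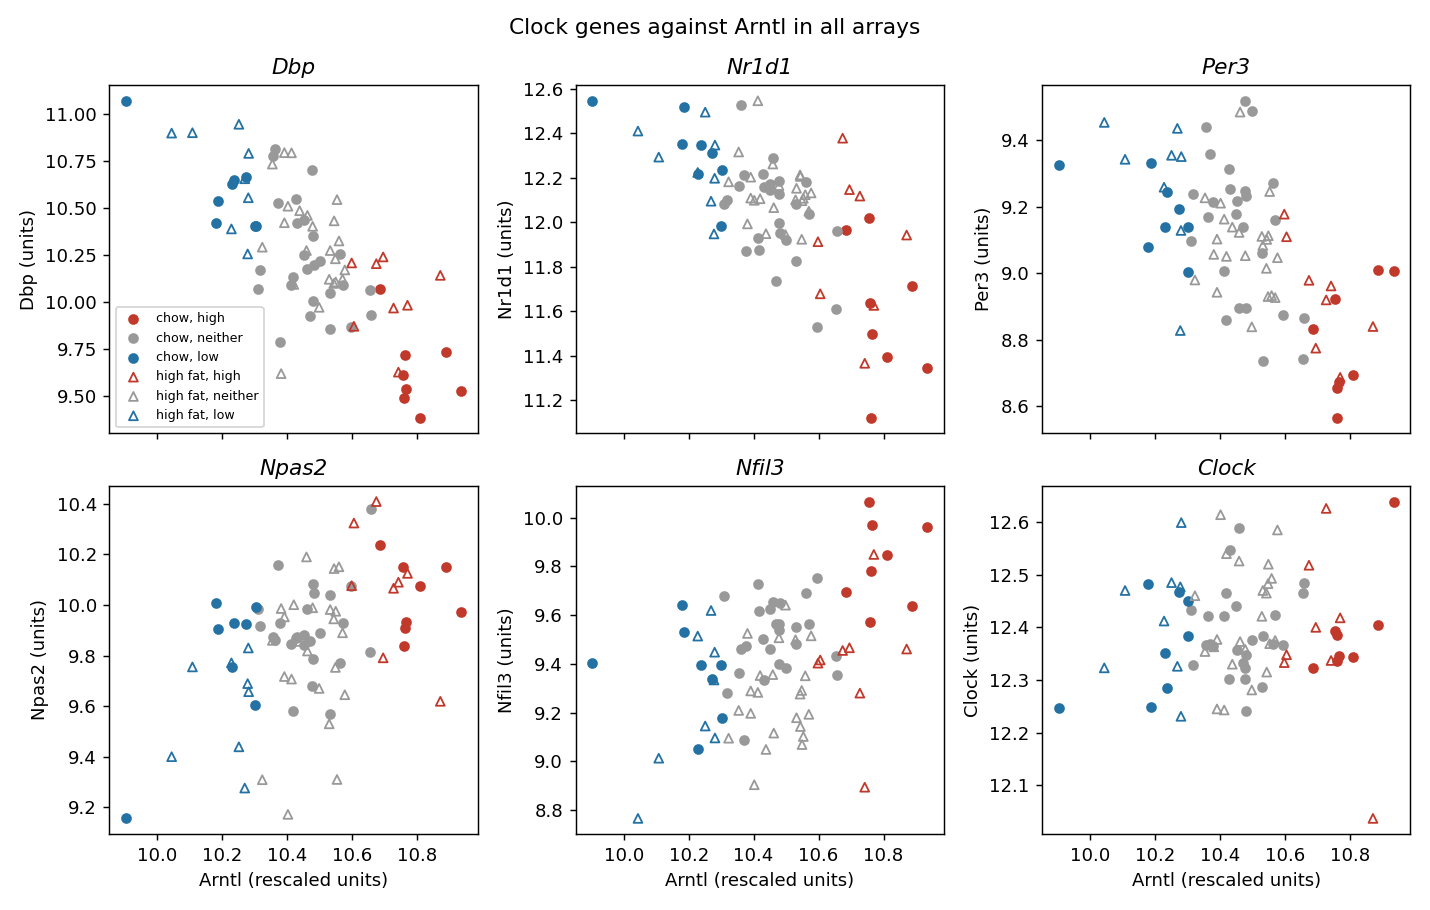
Each point is 1 of 81 arrays; the x axis is Arntl and the y axes are Dbp, Nr1d1, Per3, Npas2, Nfil3 and Clock, all in rescaled units, with filled circles for chow and open triangles for high fat. Dbp falls along the whole range of Arntl, where r was -0.825 (chow) and -0.671 (high fat), while Clock shows no slope over the bulk of the arrays.

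With all 81 arrays in 1 fit on Arntl and diet, 14 genes were called (0.0631% of those tested), 3 rising (0.0135%) and 11 falling (0.0496%) with Arntl, against 5.98% at an unadjusted p under 0.05. They comprised the 6 genes above, Bhlhe41 (adjusted p = 0.00983), Nfil3 (0.0146), Npas2 (0.0337), Usp2 (0.0398), Tcap (0.0153), Kcnj9 (0.0363) and 2 chemosensory receptor genes. Of the 14 genes 9 are on the lists of clock genes. Usp2, a ubiquitin protease whose transcript cycles in many organs, had ranked eighth between the groups (-0.253 ± 0.0526 SE, adjusted p = 0.0846, limma). Tcap, a titin-binding protein of the Z-disc, ranked ninth (-0.40, adjusted p = 0.095). The arrays of a strain on both diets are counted separately in this fit. The fit also includes the arrays of both Arntl groups, so it is not independent of the group comparison.

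The 49 arrays in neither group gave a comparison in arrays that the groups did not use. Their strains were not all separate from the groups. On each diet 2 of these arrays had an Arntl-high and 5 an Arntl-low partner of the same strain. A further 16 strains entered with both arrays, and strain was not in the fit. On the slope with Arntl 0 genes passed over the whole table (limma with diet, 1048 genes at an unadjusted p under 0.05, 4.73%). Of the 18 clock genes 6 were under that unadjusted level. Nr1d1 had a slope of -0.881 ± 0.284 units per unit of Arntl (SE, unadjusted p = 0.00313, adjusted p = 0.979), Dbp of -1.15 ± 0.433 (unadjusted p = 0.0104, adjusted p = 0.999) and Per3 of -0.774 ± 0.296 (unadjusted p = 0.0118, adjusted p = 0.999). Bhlhe40, Bhlhe41 and Arntl2 were the others, with slopes of -0.852, -0.704 and 1.13. Arntl spans only 10.31 to 10.658 in these arrays, and in simulated data with this range 24 of 100 genes with a slope of 1 were called.

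Whether the level of Arntl belonged to the strain was examined by giving every array the group of the same strain's array on the other diet. The 16 arrays whose partner was Arntl-high had Arntl between 9.904 and 10.887 (median 10.711), and 12 of them were above their diet's median. The 16 whose partner was Arntl-low had Arntl between 10.108 and 10.935 (median 10.4205), and 4 were above it. The ranges overlapped almost fully, and the means differed by 0.175. Of the strains, 9 entered with both arrays, each giving the other its group, so no p is given for this pooled difference. Within 1 diet each strain enters with 1 array. There the difference was 0.149 in chow arrays (exact permutation test, two-sided, p = 0.308) and 0.202 in high fat arrays (exact permutation p = 0.0424), with adjusted p of 0.308 and 0.0848 over both. These tests were chosen after seeing the data.

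In the same arrays 0 genes were called (limma, 1739 genes at an unadjusted p under 0.05, 7.84%). Of the 18 clock genes 4 were under the unadjusted level, all lower where the partner was Arntl-high. Dbp differed by -0.411 ± 0.127 (SE, unadjusted p = 0.00276, adjusted p = 0.448), Per3 by -0.237 (unadjusted p = 0.00164), Nr1d2 by -0.229 (unadjusted p = 0.00337) and Nr1d1 by -0.262 (unadjusted p = 0.0228). Npas2 differed by 0.0536 ± 0.0845 (SE, adjusted p = 0.924). With strain as a random block (replicate block, added after seeing the data), 0 genes were called and 3 of the clock genes were under the unadjusted level. Dbp then differed by -0.349 (unadjusted p = 0.012), Per3 by -0.219 (0.00369), Nr1d2 by -0.196 (0.0135) and Nr1d1 by -0.220 (0.058). Many of these arrays also belong to a group by their own Arntl, so these values are not independent of those above.

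Over the 39 strains with both arrays, Arntl on chow and on high fat had r of 0.323 and rho of 0.347 (permutation p = 0.0445 and 0.0303). Adjusted over 7 such relations these were 0.0519 and 0.0424. The strains farthest from the chow median, BXD95 and BXD87, lay on opposite ends on the other diet, and r was 0.531 without them. Dbp had r of 0.458 and rho of 0.534 (permutation p = 0.00345 and 0.00061, adjusted p = 0.0202 and 0.00427), with r of 0.572 without BXD95 and BXD69. Nr1d1 had r of 0.433 (permutation p = 0.00578, adjusted p = 0.0202) but rho of 0.241 (permutation p = 0.139, adjusted p = 0.139), and its r was 0.218 without BXD61 and BXD87. Ciart had r of 0.251 and rho of 0.287 (permutation p = 0.123 and 0.0762, adjusted p = 0.123 and 0.0889), with r of 0.137 without BXD95 and BXD44. For Nr1d2, Per3 and Tef r was 0.389, 0.383 and 0.345 (permutation p = 0.0142, 0.0163 and 0.0311, adjusted p = 0.0286, 0.0286 and 0.0435) and rho 0.450, 0.452 and 0.374 (permutation p = 0.00419, 0.00392 and 0.0186, adjusted p = 0.00978, 0.00978 and 0.0326). Without BXD61 and BXD68 these r were 0.366, 0.324 and 0.282. BXD87 had the highest Arntl of all arrays on chow (10.935) and was Arntl-low on high fat (10.278), while its Dbp was 9.524 and 10.256. BXD95 had the lowest Arntl of all on chow (9.904) and was Arntl-high on high fat (10.598), with Dbp of 11.071 and 10.208. In both strains Dbp moved opposite to Arntl between the pools, whereas Per3 in BXD87 was 9.008 on chow and 8.828 on high fat. C57BL/6J was Arntl-high on both diets (10.755 and 10.727). DBA/2J lay in neither group on chow (10.478) and was Arntl-low on high fat (10.251).

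**Figure D5:**
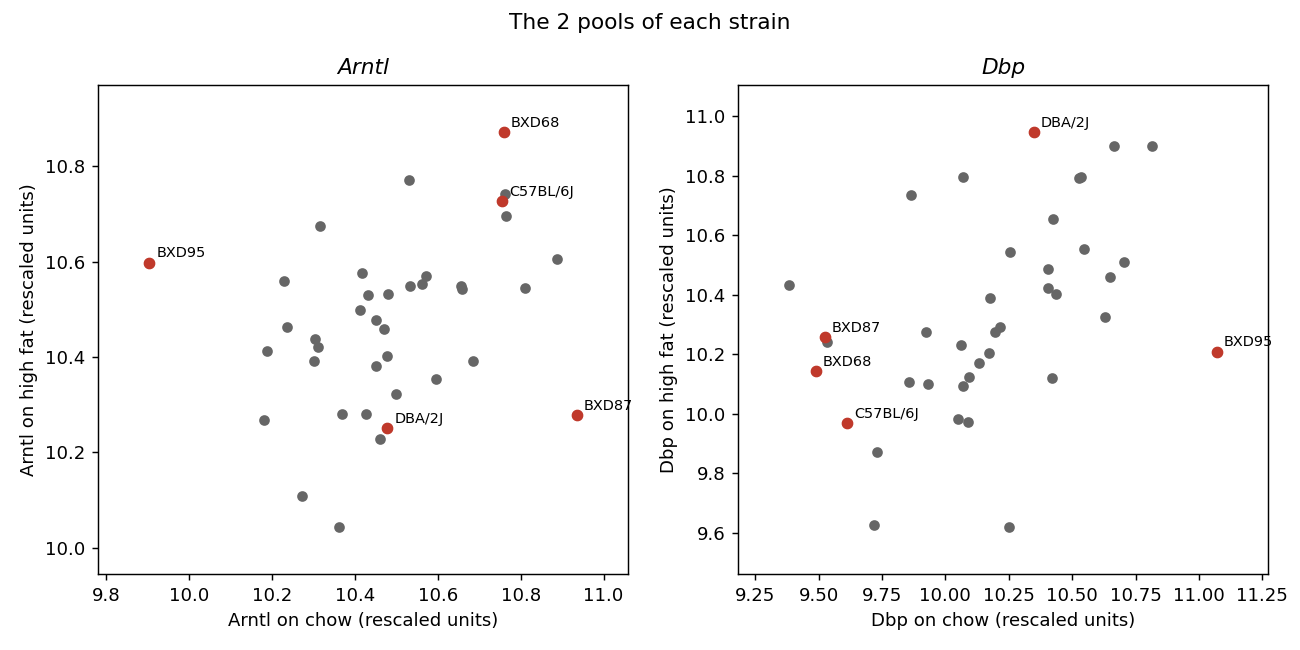
Arntl (left) and Dbp (right) of the chow pool (x axis) and the high fat pool (y axis) of each of 39 strains, in rescaled units; red points are named. BXD87 and BXD95 lie far from the other strains for Arntl, and r over all strains was 0.323 for Arntl and 0.458 for Dbp.

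The other lists of clock-linked and timed genes had 0 called members. Of 7 clock kinases and ubiquitin ligases, 10 genes that cycle in many organs, 11 cardiomyocyte clock outputs and 12 cardiac ion channels none passed, with median differences of -0.0216, -0.0753, -0.0584 and 0.0168. At an unadjusted p under 0.05 these lists held 0, 4, 1 and 0 genes, where the share over all genes was 5.88%. The 4 organ-wide genes were 3 lower and 1 higher, and the 1 cardiomyocyte output was lower. In the organ-wide list Usp2 and Coq10b, a coenzyme Q protein, had the smallest p, and Coq10b differed by -0.184 (adjusted p = 0.40). Among the cardiomyocyte outputs, Pdk4, a brake on glucose oxidation, differed by -0.277 (adjusted p = 0.849, limma), with -0.647 on chow and 0.0941 on high fat (interaction unadjusted p = 0.0048, adjusted p = 0.968). Ucp3, a mitochondrial uncoupling protein, differed by -0.719 on chow and 0.484 on high fat (interaction unadjusted p = 0.000515, adjusted p = 0.808). The sign of both genes thus differed between the diets, without passing over all genes. The transcription factor Klf15 differed by -0.103 (adjusted p = 0.915). The 11 temperature-responsive genes, 15 glucocorticoid-responsive genes, 18 fasting and PPAR targets and 14 immediate early genes also had 0 called, with medians of -0.0136, 0.00863, -0.0582 and 0.0566. One gene of these 4 lists was under an unadjusted p of 0.05, the fasting gene Acot2, an acyl-CoA thioesterase (-0.411, adjusted p = 0.219).

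Markers of ventricular cardiomyocytes were high in both groups, with list means from 14.66 to 14.93 in Arntl-high and from 14.65 to 15.04 in Arntl-low arrays. No marker of another tissue or cell type was called, in 12 lists of 1 to 12 genes. The widest marker difference was that of the atrial calcium pump regulator Sln (-0.498, 95% interval -1.92 to 0.924), and atrial list means ran from 9.31 to 12.82 in the high and from 9.71 to 12.35 in the low group. With atrial, adipocyte and mesothelial means as covariates 5 genes were called, all among the 6. Differences were positive for 10 of 10 endothelial, 10 of 12 macrophage and 8 of 10 fibroblast markers, with medians of 0.0476, 0.0702 and 0.0837, and for 2 of 10 ventricular cardiomyocyte markers (median -0.029). Other lists were one-sided too, with 8 of 10 skeletal muscle, 2 of 10 atrial and 1 of 8 thymus and T cell markers positive. Of the fasting and PPAR targets 3 of 18 were positive. Mesothelial (5 of 9), liver (4 of 7), lung (4 of 7) and brown adipocyte markers (3 of 7) were more even. One endothelial and 1 macrophage marker were higher at an unadjusted p under 0.05, Kdr (0.134, adjusted p = 0.811) and Cd163 (0.171, adjusted p = 0.796). At that level 1 ventricular cardiomyocyte marker was also higher and 1 brown adipocyte marker lower. Endothelial list means ran from 11.67 to 11.95 in the high and from 11.68 to 11.92 in the low group, macrophage means from 9.49 to 10.03 and from 9.28 to 10.004, and fibroblast means from 10.64 to 11.27 and from 10.63 to 11.25. With these 3 means as covariates Dbp differed by -0.839 (adjusted p = 1.71e-05), Nr1d2 by -0.455 (adjusted p = 0.00453) and Ciart by -0.554 (adjusted p = 0.0116). Per3 (-0.352, adjusted p = 0.0621), Nr1d1 (-0.520, adjusted p = 0.0621) and Tef (-0.323, adjusted p = 0.0986) kept similar differences but were not called.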

How the data were processed

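Whole-heart RNA pools were profiled on 81 Affymetrix arrays. The authors deposited 1 score for each probe set and array, made with Affymetrix Expression Console per the submitters' processing notes. The sources used here do not name the background or summary method. Every array was found to average 8 with an SD of 2, so an array-wide shift cannot be seen. Of 41345 probe sets 23521 have 1 gene symbol in the platform's table, 1814 several and 16010 none; the probe set with the highest mean was used for each of 22180 genes. Arntl has 1 such probe set. Precision is limited by how many arrays there are.

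Groups were compared in R 4.3.3 with limma 3.58.1 (lmFit, eBayes; statmod 1.5.0 for array weights and the strain block), with diet as a term and adjustment over all genes but Arntl, which was included only for the arrays grouped by the other diet. No filter on level was used. Correlations used 100000 permutations, and Arntl within a diet an exact test. Members and lists were chosen with earlier results of these data known. All measured genes of 4 clock lists are named, with up to 4 called members of each other list and the 12 largest called differences in each direction among genes above the median level. Usp2, Tcap, Kcnj9, Syn3, Coq10b, Acot2, Ucp3, Kdr, Cd163, Pdk4, Klf15 and Sln were chosen after their values were seen. Predicted genes, chemosensory receptors and microRNAs are counted, not named. The arrays of 1 group are different strains or diets, so p-values measure the spread between pools.

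On simulated data with the same arrays 62 of 100 genes shifted by 0.3 units and 98 of 100 shifted by 0.6 were called, and 9 of 21979 unshifted genes. Each simulation, that of the slopes included, shifted both sets of 100 genes at once. Noise was drawn independently for each gene and array. With fewer shifted genes the adjusted threshold is stricter, so these shares may be too high for the real data. Alternatives covered scaling, group size, diet, strain block, probe sets, level, parents, weights and marker covariates.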

Additional observations from a re-analysis of the deposited data

Results flagged for a closer look

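A search for single arrays far from the rest, over 72 sets of 8 arrays (18 clock genes in each diet and group), gave 5; chance gives about 1 in 20 groups. Clock in the Arntl-high chow array of BXD87 was 12.639, against 12.404 for the next array. Npas2 in the Arntl-low chow array of BXD95 was 9.156, the lowest of its set, with 9.606 next. Dbp in that same array was 11.071, the highest of its set, with 10.667 next. Arntl2 in the Arntl-low high fat array of BXD55 was 8.76, with 8.263 next. Nr1d2 in the Arntl-high high fat array of BXD65 was 10.093, the lowest of its set, with 10.508 next.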

How the results depend on the processing

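On high fat alone 0 genes passed and Dbp differed by -0.644 (adjusted p = 0.271), while chow alone kept 3 of the 6. With endothelial, macrophage and fibroblast means as covariates 3 genes passed, and with Arntl as a continuous covariate over all 81 arrays 14 genes passed. In the other 11 alternatives between 4 and 9 genes were called. Leaving out each of 32 arrays gave 6 to 11 genes, all 6 kept each time, and Dbp between -0.839 and -0.766. With strain as a random block (replicate block, consensus correlation 0.152) the same 6 genes were called. Dbp ran from -0.965 to -0.611 over 14 alternatives and lost its call on high fat alone. Tef lost its call in 9 of 14 alternatives, Ciart and Per3 in 4 each, Nr1d1 in 2 and Nr1d2 in 1. The Arntl difference by the other diet's array was 0.149 in chow arrays alone, 0.140 after quantile normalization and 0.231 with each array centred on its median. Among uncalled genes the sign of Clock turned in 10 alternatives, to 0.0225 with 12 and 0.0306 with 5 arrays per diet and group, 0.0207 over 81 arrays, 0.00777 with array weights, 0.0139 with marker covariates, 0.0319 on chow, 0.0369 with median centring, 0.00144 without parents, 0.0132 with quantile normalization and 0.00354 with the strain block, and it ran from -0.0211 to 0.0215 with arrays left out. Arntl2 turned to 0.0151 with 12 arrays and 0.0165 over 81 arrays, Cry2 to 0.00871 with 12 arrays and 0.0658 on high fat, Rora to -0.019 on chow and Rorb to -0.0927 on high fat. The cause of these changes was not tested. Values given here over 81 arrays are slopes on Arntl multiplied by the Arntl difference between the groups (0.543 units), not differences between group means. No paired analysis by replicate number was possible because the labels give none.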
